A study of Mus musculus with 4 samples.

Results

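Immediate early genes and heat shock genes were followed across the cell types of mouse intestine and brain by single-cell RNA sequencing. The genes were chosen by listed symbols, and all 36 were found under a symbol of their own among the 55450 genes of the count tables. Of these, 26 are immediate early genes and 10 are heat shock or chaperone genes. By role they form 7 AP-1 and ATF transcription factors (Fos, Fosb, Fosl2, Jun, Junb, Jund, Atf3) and 8 zinc finger and nuclear receptor factors (Egr1, Egr2, Egr3, Klf2, Klf4, Klf6, Nr4a1, Nr4a2). A further 11 are feedback and growth arrest genes (Ier2, Ier3, Ier5, Dusp1, Dusp2, Dusp5, Zfp36, Btg1, Btg2, Socs3, Gadd45b). The heat shock genes comprise 6 inducible ones (Hspa1a, Hspa1b, Dnajb1, Hsph1, Hspb1, Hsp90aa1) and 4 constitutive or mitochondrial chaperones (Hspa8, Hsp90ab1, Hspe1, Hspd1).

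The cells came from WT mice, and 4 libraries of the 10x Genomics 3' chemistry were made, 1 per group: untreated intestine, intestine after NPs for 1 week, untreated brain, and brain after NPs for 2 months. What NPs stands for and how many animals went into a library are not given in the labels, which name BALB/c mice aged 5 weeks and ICR mice aged 6 months without tying a strain to a tissue, so tissue, strain, age and time of treatment cannot be told apart in any difference between the tissues. All 4 suspensions were made in the same way, with collagenase IV, papain and DNase I at 37 °C under shaking for 20 min, then red cell lysis and removal of dead cells on beads, to a viability above 85%. No group skipped or shortened this step, so transcripts present in the tissue and transcripts made during dissociation cannot be told apart here. With 1 library per group no difference has a replicate check, no test was made, and all 95% intervals in parentheses (exact Poisson for levels, conditional binomial for ratios, Clopper-Pearson for shares) cover counting error only.

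Immediate early genes are transcribed within minutes of a stimulus from factors already present in the cell, and their products include transcription factors of the next wave and brakes on the signal itself. FOS and JUN proteins pair to form AP-1, dual specificity phosphatases switch off MAP kinases, and Zfp36 protein directs AU-rich messages to decay. Heat shock genes are driven by heat shock factor 1 when unfolded proteins accumulate, while their constitutive relatives fold proteins in unstressed cells. Warm enzymatic dissociation is a well-known inducer of both groups, with microglia, muscle stem cells and immune cells among the cell types in which this was described.

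Libraries held 11754 to 20368 barcodes with medians of 2043 to 5026.5 unique molecular identifiers (UMIs, single counted transcripts). A limit of 20% mitochondrial UMIs removed 16.7% and 46.5% of the untreated and NPs intestinal barcodes but 0.681% and 0.278% of the brain barcodes. After removal of doublets 16855 and 10556 intestinal and 11333 and 11942 brain cells remained. Any 2 libraries shared 35 to 104 barcodes, at most 0.605% of the smaller. Clusters were made without the 36 genes and without the further lists of related genes, and were named only by likeness to marker genes. The 16 classes with at least 50 cells in both libraries of a tissue were compared. Unnamed clusters stood outside these classes, with 1190 untreated (7.06%) and 2503 NPs (23.7%) intestinal cells, and 216 (1.91%) and 103 (0.863%) brain cells. The largest in the intestine were cluster 22 with 2233 NPs cells and cluster 3 with 1025 untreated cells, so the class comparisons do not cover the whole tissue. Although the series is titled for immune cells of the colon and brain, 5543 of the untreated intestinal cells were absorptive epithelium-like and 4166 of the untreated brain cells were astrocyte-like. Median UMIs per cell differed between the intestinal libraries, from 2062 to 12882.5 in absorptive epithelium-like, 2119 to 9069.5 in goblet-like and 1458 to 8334 in plasma-like cells, and depth was held equal only in the values from cells thinned to 1000 UMIs.

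Promoter sequences of the genes on which the results turn are shown first, because most heat shock members with a window hold a shared element. Immediate early windows held it about as often as all windows. The sequences are from RefSeq on build GRCm38.p6, and windows matched by symbol for 30 members, while Egr1, Egr3, Ier2, Hspa8, Hsp90aa1 and Hsp90ab1 were not matched. Each run is the 250 bases before the annotated start, 5′ to 3′ on the strand of the gene. Hspa1a lies at chr17:34972157-34972406 (minus strand), Hspa1b at chr17:34959239-34959488 (minus), Hspe1 at chr1:55087898-55088147 (plus), Fos at chr12:85473640-85473889 (plus) and Dusp1 at chr17:26508473-26508722 (minus). Capitals mark pairs of heat shock units (GAANNTTC or TTCNNGAA) in the heat shock genes, the short core TGACG of the cyclic AMP element and the TATA box TATAAA in Fos, and the full cyclic AMP element TGACGTCA in Dusp1.
Hspa1a: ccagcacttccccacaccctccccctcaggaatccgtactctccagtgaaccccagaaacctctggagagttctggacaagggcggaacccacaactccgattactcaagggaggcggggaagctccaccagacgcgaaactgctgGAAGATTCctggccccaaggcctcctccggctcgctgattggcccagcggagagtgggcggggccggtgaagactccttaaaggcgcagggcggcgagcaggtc
Hspa1b: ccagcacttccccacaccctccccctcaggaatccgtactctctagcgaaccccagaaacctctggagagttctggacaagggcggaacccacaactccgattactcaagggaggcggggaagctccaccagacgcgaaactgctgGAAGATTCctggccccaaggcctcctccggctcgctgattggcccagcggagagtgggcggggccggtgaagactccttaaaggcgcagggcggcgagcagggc
Hspe1: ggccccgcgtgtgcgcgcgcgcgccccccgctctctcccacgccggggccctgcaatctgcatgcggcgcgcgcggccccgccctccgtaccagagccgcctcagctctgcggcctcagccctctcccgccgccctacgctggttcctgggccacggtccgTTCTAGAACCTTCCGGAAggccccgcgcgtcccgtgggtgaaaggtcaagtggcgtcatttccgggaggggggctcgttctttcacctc
Fos: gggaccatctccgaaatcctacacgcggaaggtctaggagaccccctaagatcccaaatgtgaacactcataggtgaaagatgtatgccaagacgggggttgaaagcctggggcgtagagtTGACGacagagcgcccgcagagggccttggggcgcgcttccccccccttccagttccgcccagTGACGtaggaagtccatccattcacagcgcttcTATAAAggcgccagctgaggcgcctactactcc
Dusp1: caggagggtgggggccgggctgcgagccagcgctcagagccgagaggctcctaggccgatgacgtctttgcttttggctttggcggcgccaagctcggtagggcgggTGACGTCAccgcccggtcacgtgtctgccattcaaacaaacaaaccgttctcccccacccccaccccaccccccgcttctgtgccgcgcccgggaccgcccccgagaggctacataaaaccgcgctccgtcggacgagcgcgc
The Hspa1a and Hspa1b windows are identical at 247 of 250 bases (98.8%), and the genes, which encode near-identical HSP70 proteins, lie 9952 bases apart on the same strand. The windows lie before the transcripts and do not show how alike the sequenced ends are. Reads could fit both genes, so their separate counts and their sum are uncertain. Hspd1 and Hspe1, the mitochondrial chaperonin pair, are read in opposite directions and their spans overlap by 112 bases, so the Hspe1 window shown also covers the start of Hspd1.

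Over 37 windows of the 30 members, searched on both strands, the heat shock unit pair was found in 7 of 10 heat shock windows (70%), in 3 of 27 immediate early windows (11.1%) and in 12.8% of all 32851 windows. The heat shock genes that held it were Hspa1a, Hspa1b, Hspb1, Hspd1, Hspe1 and Hsph1, of which Hspa1a with Hspa1b and Hspd1 with Hspe1 share sequence and are not separate cases. The core TGACG stood in 15 of 27 immediate early windows (55.6%) and 4 of 10 heat shock windows (40.0%) against 17.8% of all windows, and the full TGACGTCA, which contains it, in the windows of Btg2 and Dusp1 (7.41% against 1.55%). The CArG box, the serum response element core, was present in 6 immediate early windows (22.2%), those of Dusp5, Egr2 and Zfp36, against 1.47% of all. TATAAA was about as frequent in the immediate early windows (14.8%) as in all (12.4%). The AP-1 site TGANTCA (6.75% of all) and the EGR site GCGTGGGCG (0.536% of all) were found in none of the member windows. A match describes these letters only, 4 members have several windows, and binding was not measured. Overlapping windows of Egr2 hold the same CArG and TGACG sites, so the immediate early shares by window count these sites repeatedly.

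The summed level of the 26 immediate early genes was high in neutrophil-like, vascular smooth muscle-like and microglia-like cells of the brain and low in its astrocyte-like and choroid plexus-like cells. In the untreated brain the sum was 229 per 10000 UMIs in neutrophil-like, 163 in vascular smooth muscle-like and 162 in microglia-like cells. It was 122 in an unnamed cluster led by Cd74, Lyz2 and MHC class II genes and 95.6 in T cell-like cells. Astrocyte-like cells, at 8.08, and choroid plexus-like cells, at 7.53, were lowest. In the untreated intestine an unnamed cluster led by Gzma, Xcl1, Ncr1 and Ifng was highest at 161, followed by macrophage or monocyte-like cells at 119, enteroendocrine-like cells at 87.5 and T cell-like cells at 78.0. Absorptive epithelium-like cells at 48.9 and plasma-like cells at 35.3 were lowest. Neighbours in this order, such as vascular smooth muscle-like and microglia-like cells, were close and have no replicate spread, so only the wide gaps are read.

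The 10 heat shock genes followed another order. Ependymal-like cells of the brain were highest, with 135 per 10000 UMIs untreated and 139.9 after NPs, although their immediate early sum was only 24.0 untreated. The high value came from cluster 12, led by Tmem212 and Ccdc153, with 164 per 10000 in the untreated library, while cluster 25, led by Sspo and holding 41.9% of the untreated class, stood at 60.7. Oligodendrocyte-like cells (64.3) and cycling cells (55.6) came next in the untreated brain, and neutrophil-like cells, with the highest immediate early sum there, had the lowest heat shock sum, 6.32. In the untreated intestine the unnamed Gzma cluster (79.8), cycling cells (73.3) and B cell-like cells (70.6) were highest and absorptive epithelium-like cells (20.0) lowest. Across the 47 pairs of class and library the Pearson correlation of both sums on the log2(CPM + 10) scale was 0.069. Single genes differed over the same points. Fos had 0.67 with Hspa1a, 0.67 with Hspa1b and 0.64 with Dnajb1, but 0.059 (Hspb1) to 0.27 (Hspe1) with the other heat shock genes. In untreated ependymal-like cells Hsp90aa1 made up 49.2% and Hsp90ab1 33.4% of the heat shock sum. These points share libraries and depth, so the values are a description without a test.

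**Figure D1:**
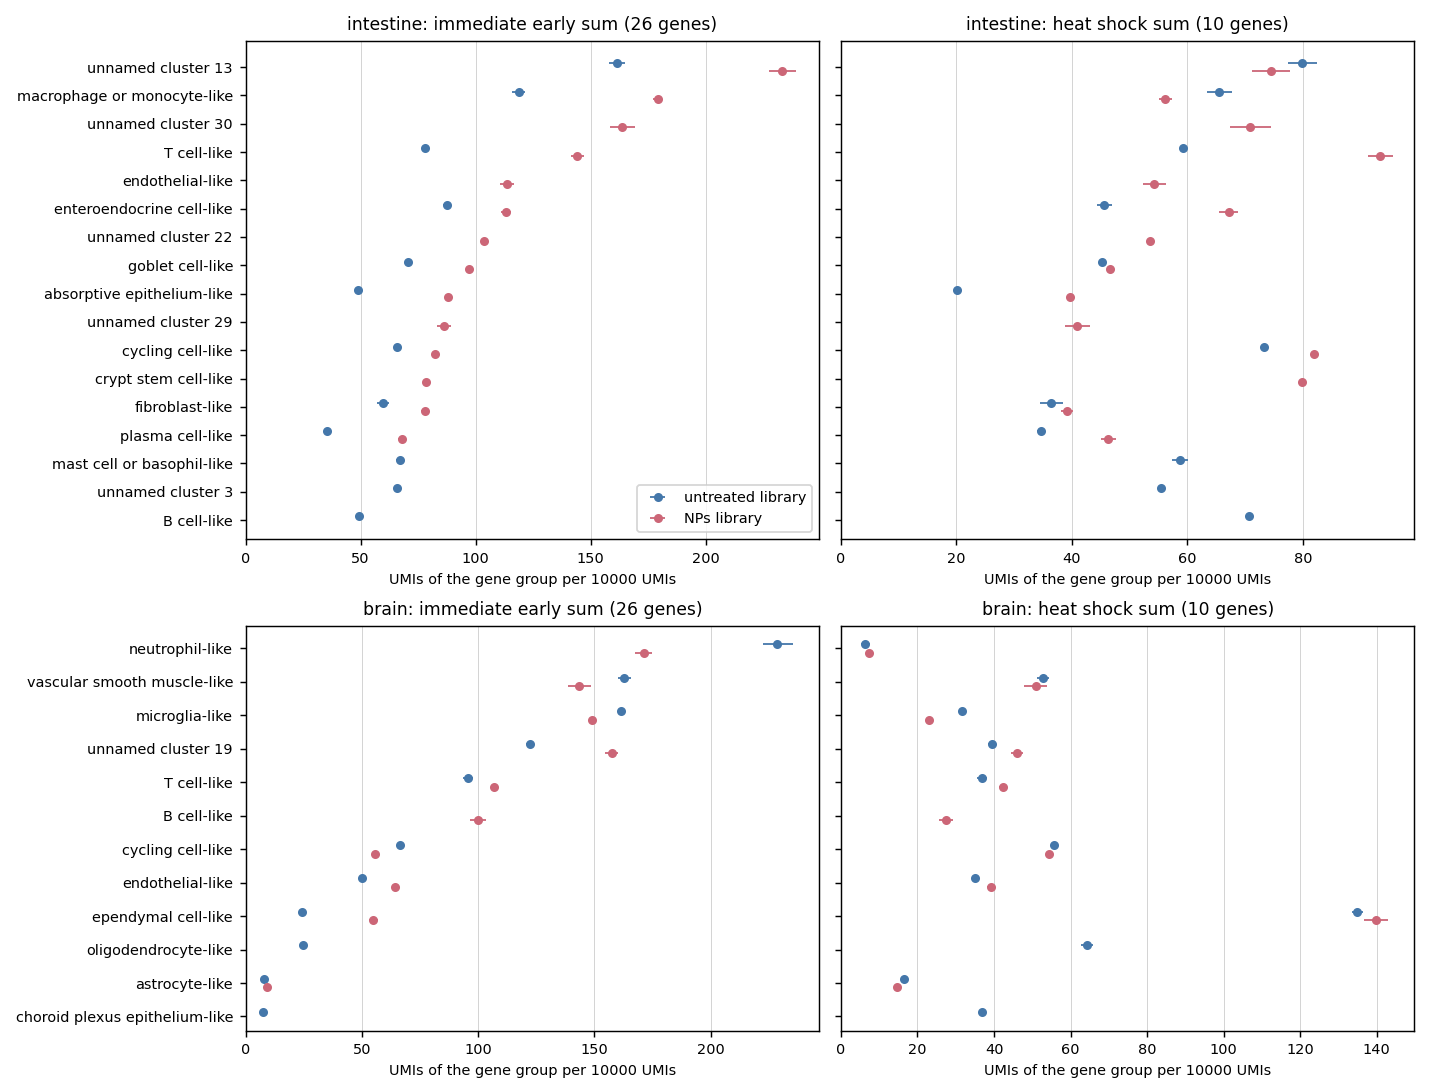
Summed level of the 26 immediate early genes and of the 10 heat shock genes, in UMIs per 10000 UMIs of the class, for each class with at least 50 cells in the untreated and in the NPs library of intestine and brain, with exact Poisson 95% intervals. In the untreated libraries the immediate early sum runs from 7.53 in choroid plexus-like to 229 in neutrophil-like brain cells, and the heat shock sum peaks in ependymal-like cells at 135.

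**Figure D2:**
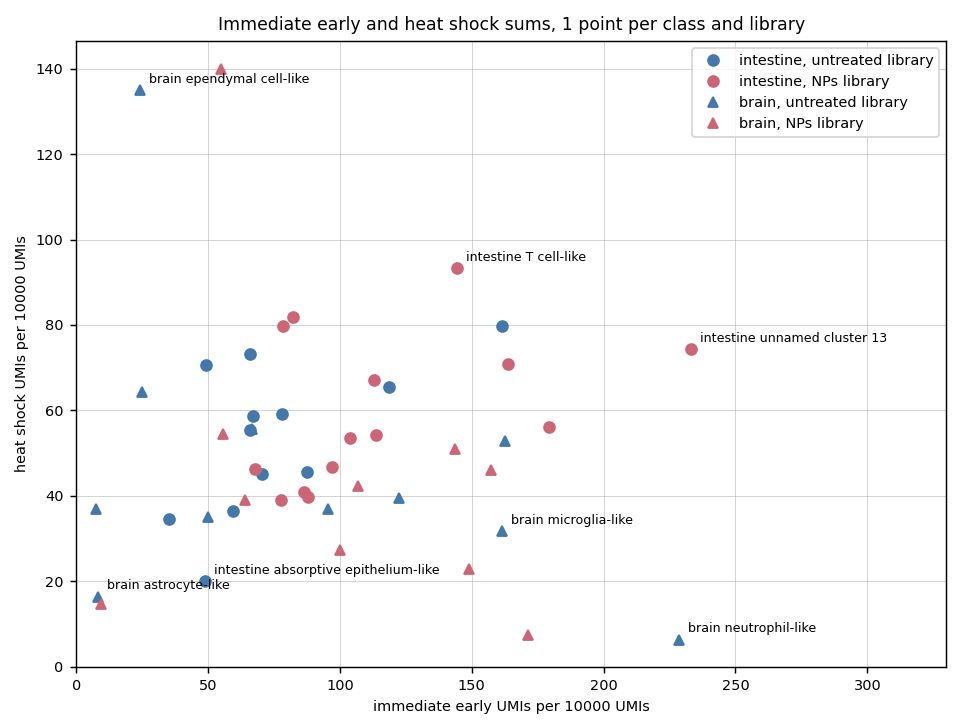
Immediate early sum against heat shock sum, both in UMIs per 10000 UMIs on linear axes, with 1 point per class and library, circles for intestine and triangles for brain. Brain neutrophil-like cells sit at high immediate early and low heat shock levels and ependymal-like cells at the opposite end, and over the 47 points r = 0.069.

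Levels of single genes follow by role, and where 2 levels are given together the first is the untreated and the second the NPs library. Among the AP-1 and ATF factors, Fos and Jun had different leading cells. Within the brain Fos, the prototype of the family, was highest in vascular smooth muscle-like cells with 2857 CPM (UMIs of the gene over all UMIs of the class, on the usual CPM scale) untreated and 2819.6 CPM after NPs, against 1279 and 1336 CPM in microglia-like cells and 27.4 and 43.4 CPM in astrocyte-like cells. Jun was highest in microglia-like cells, with 3284 and 3106 CPM, and low in neutrophil-like cells, with 253 and 343 CPM. Junb showed the opposite pair, 3935 and 2426 CPM in neutrophil-like and 1625 and 1264 CPM in microglia-like cells. Jund was between 1029.9 and 1858 CPM in cycling, T cell-like, microglia-like and neutrophil-like cells of the untreated brain, but 183 CPM in astrocyte-like cells, its lowest class there. Atf3, a stress-induced repressor, reached 1065 and 799 CPM in microglia-like cells and 572 and 1359.9 CPM in intestinal macrophage or monocyte-like cells. Fosb followed Fos, with 665 and 582 CPM in vascular smooth muscle-like and 369 and 472 CPM in microglia-like cells of the brain. Fosl2 was highest in neutrophil-like cells (215 and 147 CPM) of the brain and in the intestinal Gzma cluster (114 and 286 CPM).

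The zinc finger and nuclear receptor factors each had classes in which they were high and classes in which they were nearly missing. Klf2, a factor of quiescent lymphocytes and endothelium, reached 3977 and 3782 CPM in brain neutrophil-like, 1607 and 1011 CPM in brain T cell-like and 1166 and 1532 CPM in brain endothelial-like cells. Klf4, which also acts in epithelial differentiation, was highest in absorptive epithelium-like cells of the untreated intestine (864 CPM) and stood at 534 and 812 CPM in brain endothelial-like cells. Klf6 was 572 and 1121 CPM in T cell-like cells of the intestine and 658 and 767 CPM in microglia-like cells. Within the brain Egr1 was highest in cycling cells, with 1243 and 902 CPM. That cycling cluster also raised all 7 neuroblast markers. Nr4a1, an orphan receptor induced by antigen receptor signals, was highest in the Gzma cluster (705 and 1148 CPM) and in T cell-like cells (278 and 554 CPM) of the intestine. Its relative Nr4a2 reached 211 and 229 CPM in the intestinal T cell-like cells but 0.624 and 0.365 CPM in microglia-like cells. Egr2 was at most 55.1 CPM in any class, and within the untreated intestine Egr3 was highest in B cell-like cells (80.4 CPM).

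Of the feedback genes, Dusp1, a MAP kinase phosphatase, was 1577 and 1052 CPM in brain neutrophil-like cells, and Zfp36 1614 and 894 CPM. Dusp2 was a gene of lymphoid and myeloid classes, with 312 and 263 CPM in brain T cell-like cells and 180.1 and 398 CPM in intestinal macrophage or monocyte-like cells, against 0.273 and 0.671 CPM in astrocyte-like cells. Dusp5 was highest in the intestinal Gzma cluster (358 and 602 CPM). Socs3, an inhibitor of cytokine receptors, and Ier3 were high in myeloid cells: Socs3 was 618 and 372 CPM and Ier3 439.8 and 272 CPM in neutrophil-like cells, and Ier3 666 and 775 CPM in intestinal macrophage or monocyte-like cells. Gadd45b was high in the Gzma cluster (1109.8 and 2387 CPM) and in intestinal T cell-like cells, but low in microglia-like (62.6 and 38.7 CPM) and astrocyte-like cells (12 and 9.24 CPM). The growth arrest genes Btg1 and Btg2 were high in lymphocytes and neutrophils, with 1969.9 and 1636 CPM and 1572 and 1103 CPM in brain neutrophil-like cells. Ier5 was highest there too, with 959 and 809 CPM. Ier2 reached 669 and 576 CPM in the same cells.

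The heat shock members also differed in their leading classes. Hsp90aa1, the inducible HSP90, was 6638 and 5814 CPM in ependymal-like cells against 246 and 192 CPM in astrocyte-like cells, and its constitutive relative Hsp90ab1 was 4507 and 5044 CPM and 681 and 569 CPM in the same classes. Hsph1, an HSP70 exchange factor, was 607 and 583 CPM in ependymal-like cells and at most 185 CPM in the other 7 brain classes compared. Hspb1, a small heat shock protein, was a vascular gene: 1421 and 1453 CPM in vascular smooth muscle-like and 838 and 1074 CPM in endothelial-like cells, against 0 and 4.48 CPM in brain T cell-like cells. Hspe1 and Hspd1 were highest in cycling cells of the intestine, with 1075 and 1084 CPM and 703 and 822 CPM. Hspa8, the constitutive HSC70, was spread widely, with 705 and 1008 CPM in ependymal-like, 753 and 1049.5 CPM in intestinal T cell-like and 112 and 178 CPM in brain neutrophil-like cells. Dnajb1, the HSP40 partner of HSP70, was at most 92.0 CPM in the 8 brain classes compared, while in the intestine it reached 569 CPM in enteroendocrine-like cells after NPs.

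Hspa1a and Hspa1b, the inducible HSP70 pair, covered a wide range over the cell types. In the untreated libraries Hspa1a was 689.8 CPM in vascular smooth muscle-like, 343 in microglia-like and 252 in T cell-like brain cells, but 19.1 in cycling, 12.6 in astrocyte-like and 9.36 in neutrophil-like cells. In the untreated intestine it was 497 CPM in the Gzma cluster, 458 in macrophage or monocyte-like, 248 in T cell-like and 62.6 in absorptive epithelium-like cells. The pair varied together over classes and libraries (r = 0.92 over 47 points), as did Hspe1 with Hspd1 (0.91), Fos with Fosb (0.91) and Dusp1 with Zfp36 (0.90). Reads that fit both HSP70 genes can affect the first of these values.

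Free RNA sets a floor under low levels. Microglia marker genes were found in astrocyte-like cells at 3.04% and 5.19% of their microglia-like level in the untreated and NPs libraries, and the astrocyte-like immediate early sum was 8.08 and 9.20 against 162 and 149 in microglia-like cells. Goblet markers stood in T cell-like cells of the intestine at 1.69% and 4.79% of their goblet-like level. The part of free RNA in the low immediate early levels was not tested.

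Microglia-like cells held most of their immediate early transcripts in a minority of cells. Clusters 5 and 10 were picked because at least 3 of the 36 genes were among their 10 leading genes. They had 4 (Atf3, Egr1, Klf2, Zfp36) and 5 (Atf3, Klf4, Egr1, Klf2, Dusp1) of them there, next to Ccl4, Rgs1 and Il1a. The clustering was made without the 36 genes, but the choice of clusters used them. The high immediate early levels and shares of these clusters therefore follow in part from the choice. These clusters made up 1283 of 5209 untreated (24.6%, 23.5 to 25.8) and 1358 of 6476 NPs microglia-like cells (21.0%, 20.0 to 22.0), yet 78.4% and 74.3% of the immediate early UMIs of the class. The sum within them was 390.2 and 406 per 10000 UMIs, against 51.8 and 52.5 in the other microglia-like cells. Fos was 3537 CPM in cluster 5 and 161 CPM in cluster 3 of the untreated library, and 4323 CPM in cluster 10 and 262 CPM in cluster 6 of the NPs library. Jun, at 7485 CPM in cluster 5 and 1229 CPM in cluster 3 untreated, and Egr1, at 2086 and 116 CPM, followed the same split. Cluster 18, led by interferon-induced genes such as Cxcl10 and Ifit2, lay between them with Fos at 1374 and 734 CPM. Their heat shock sum was 53.5 and 34.4 per 10000, against 21.3 and 18.6 in the others. Each cluster belonged mostly to 1 library, cluster 5 with 1246 untreated and 60 NPs cells and cluster 10 with 37 and 1298, and the cells were deeper, with median UMIs of 6644 and 6064 against 4485 and 4412. Ccl4, Rgs1 and Il1a were also left out of the clustering genes. Genes outside the lists can still move with the members, so the difference between clusters is a description.

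**Figure D3:**
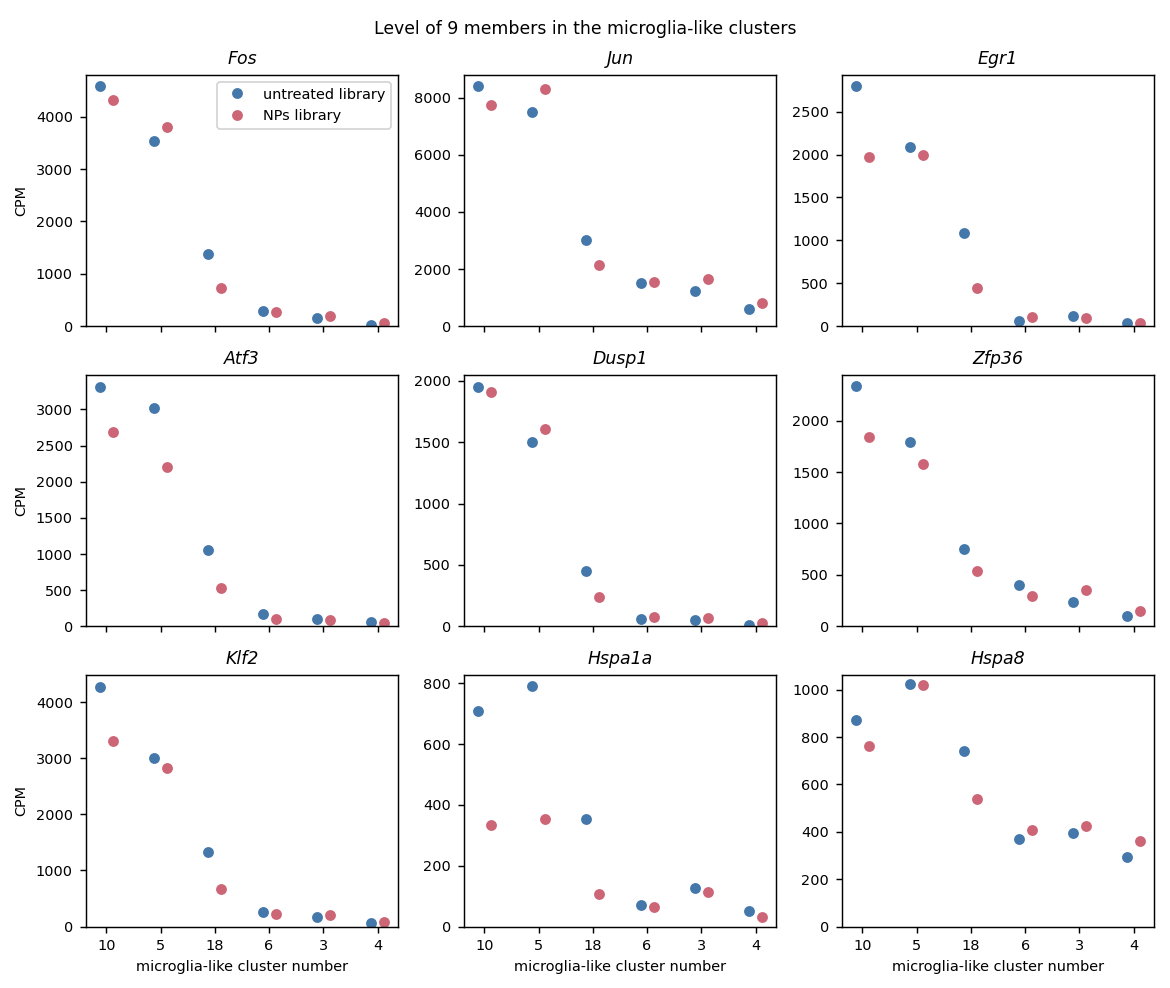
Level in CPM of 9 of the genes (Fos, Jun, Egr1, Atf3, Dusp1, Zfp36, Klf2, Hspa1a and Hspa8, 1 panel each) in the 6 microglia-like clusters, with 1 point per library and no error bar since each is 1 library. Clusters 5 and 10, picked for members among their leading genes, stand apart in both libraries, with Fos at 3537 to 4578 CPM. Hspa1a in them is lower in the NPs library.

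The same split appeared in single cells thinned to 1000 UMIs. Jun was found in 91.8% (90.2 to 93.3) of untreated microglia-like cells with a Fos UMI and in 52.6% (51.0 to 54.1) of those without, and after NPs in 90.1% and 51.5%. Egr1 was found in 60.9% against 9.10% untreated and in 51.6% against 5.67% after NPs. Hspa1a was found in 30.8% against 9.29% untreated and in 16.1% against 3.91% after NPs, so the heat shock gene followed Fos in the same cells. In astrocyte-like cells Jun was found in 8.85% (4.33 to 15.7) of untreated cells with Fos and in 8.65% (7.78 to 9.58) of those without. Median depth before thinning was 4917 UMIs in untreated microglia-like and 4883.5 in untreated astrocyte-like cells.

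After thinning, at least 5 of the 26 immediate early genes were found in 97.2% of untreated neutrophil-like, 38.3% of microglia-like and 0.126% of astrocyte-like brain cells, and 49.2% of astrocyte-like cells had none. The 10% of microglia-like cells with the most immediate early UMIs held 49.2% and 52.1% of them in the untreated and NPs libraries, against 19.2% and 20.1% in neutrophil-like cells. In the intestine the share of cells with at least 5 of these genes was 56.3% and 81.0% in T cell-like, 32.3% and 67.5% in absorptive epithelium-like, and 73.4% and 88.7% in macrophage or monocyte-like cells (untreated and NPs). The 10% of these cells with the most held 22.4% to 26.8% of the UMIs, so the signal was spread over the class rather than held by few cells. Thinning left out 640 and 49 T cell-like, 1105 and 12 absorptive epithelium-like, and 31 and 58 macrophage or monocyte-like cells with fewer UMIs.

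The NPs library was compared with the untreated one within each class. A gene was compared where its mean level was at least 20 CPM with at least 20 UMIs expected in the smaller class total, and was called higher or lower from 1.5-fold. A gene low in 1 library can pass this limit through the other, among the members and among all genes. In the intestine the immediate early sum was above the untreated level in all 8 classes, and by at least 1.5-fold in 4 of them. The ratio was 1.92 (1.86 to 1.98) in plasma-like, 1.85 (1.81 to 1.88) in T cell-like, 1.80 (1.79 to 1.81) in absorptive epithelium-like and 1.51 (1.47 to 1.55) in macrophage or monocyte-like cells. It was 1.38 in goblet-like, 1.31 in fibroblast-like, 1.29 in enteroendocrine-like and 1.25 in cycling cells. The heat shock sum passed 1.5-fold in absorptive epithelium-like (20.0 to 39.7 per 10000, ratio 1.98 (1.97 to 2.00)) and T cell-like cells (59.2 to 93.3, ratio 1.58 (1.54 to 1.61)), and was below the untreated level in macrophage or monocyte-like cells (65.5 to 56.2). The T cell-like value did not pass once the median of all genes was set to 0 (log2 ratio 0.54 instead of 0.66). In absorptive epithelium-like cells the heat shock difference was seen only in cells above 5000 UMIs (17.6 and 40.0 per 10000), with 30.6 and 31.1 in cells of 2000 to 5000 UMIs and 34.9 and 30.8 in cells of 500 to 2000 UMIs, where 55 NPs cells stood. The immediate early sum in the same 3 ranges was 48.8 and 87.1, 50.1 and 108, and 48.5 and 79.5. With every cell thinned to 1000 UMIs the log2 ratio of the heat shock sum in absorptive epithelium-like cells was 0.47 instead of 0.99 and no longer passed 1.5-fold, that of macrophage or monocyte-like cells was 0.07 instead of -0.22, and the immediate early sum passed 1.5-fold in 7 classes instead of 4.

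Hspa1a, Ier2, Junb and Jund were called higher in all 8 intestinal classes, Jun, Hspa1b and Dnajb1 in 7, and Egr1 and Hsph1 in 6. Ier5 was called higher in 6 of the 7 classes in which it could be compared. Fos was called higher in 1 class only, and Klf4, Zfp36 and Hspa8 in none. The median log2 ratio over all genes compared was 0.12 in T cell-like, 0.21 in absorptive epithelium-like, 0.25 in enteroendocrine-like, -0.15 in macrophage or monocyte-like and -0.20 in plasma-like cells. Member ratios and calls are not adjusted for these medians, which were set to 0 only in an alternative. Common control genes such as Actb and Gapdh went the other way, with medians of -0.40 in T cell-like and -0.70 in macrophage or monocyte-like cells.

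**Figure D4:**
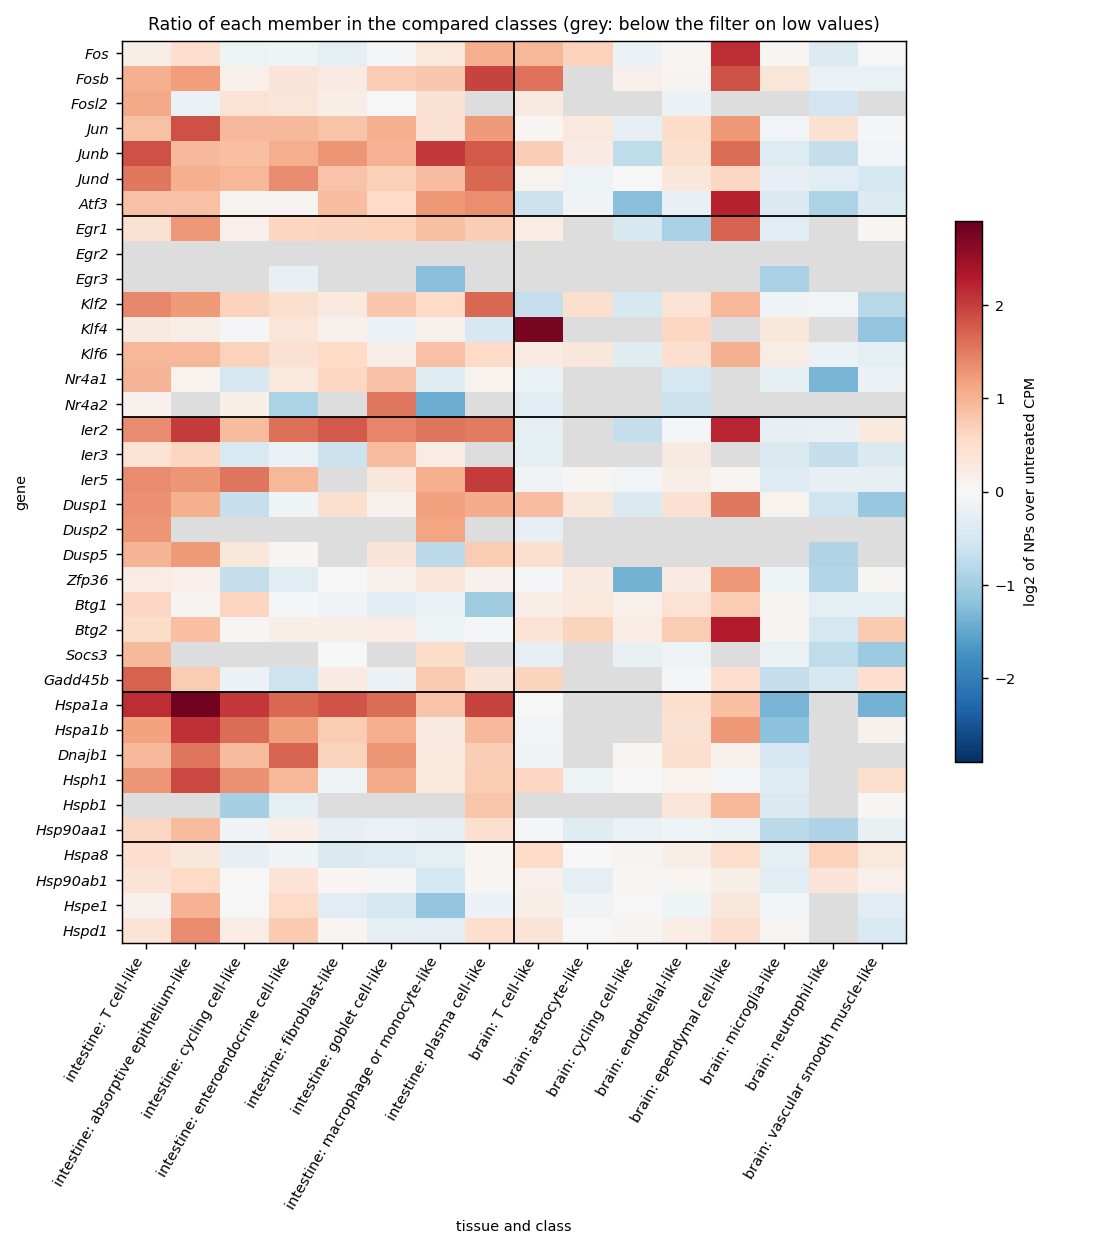
Log2 ratio of the level in the NPs over the untreated library for each of the 36 genes (rows) in the 16 compared classes (columns), drawn as a colour from blue (lower) to red (higher), with grey for genes under the level limit. Hspa1a, Ier2, Junb and Jund are higher in all 8 intestinal classes, whereas in the brain the higher values gather in the ependymal-like column.

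Absorptive epithelium-like cells, which take up water and solutes, had more members higher than any other class. Of 30 compared, 23 were at least 1.5-fold higher after NPs and 0 lower, against 25.6% of all genes higher and 12.3% lower. Hspa1a went from 62.6 CPM in the untreated to 439 CPM in the NPs library, 7.01-fold (6.71 to 7.32) higher. Hspa1b went from 78.4 CPM in the untreated to 343 CPM in the NPs library, 4.37-fold (4.20 to 4.55). Both genes of the HSP70 pair were called higher, and how reads that fit both were counted was not tested. Hsph1 stood at 14.4 and 54.5 CPM, a ratio of 3.77-fold (3.43 to 4.16), but its log2 ratio was 0.33 as a mean over cells, under 1.5-fold, and 3.06 with doublets kept. Ier2, a growth factor induced nuclear protein, stood at 89.7 and 366 CPM, a ratio of 4.08-fold (3.93 to 4.24). All 5 inducible heat shock genes compared and 3 of the 4 chaperones of the constitutive group were called higher, with median log2 ratios of 1.92 and 0.80. At the other end stood Fosl2 (103 and 90.7 CPM), Btg1 (373 and 392 CPM), Nr4a1 (24.8 and 26.8 CPM) and Zfp36 (194 and 214 CPM), all within 1.5-fold. Nr4a1 depended on the setting, with log2 ratios from -0.77 (mean over cells) to 1.15 (doublets kept). The untreated cells of this class lay mostly in clusters 7, 9 and 14 and the NPs cells in clusters 23 and 24, with median mitochondrial shares of 4.74% and 7.10%, so cluster, depth and treatment cannot be told apart here.

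In T cell-like cells of the intestine 22 of 33 members were higher and 0 lower, against 17.8% and 5.88% of all genes. The libraries filled different clusters of the class: cluster 12 made up 8.6% of the class untreated and 57.4% after NPs, and most untreated cells lay in clusters 2, 6, 10 and 11, so cluster and treatment cannot be told apart in the class values. Hspa1a stood at 248 and 1098 CPM, a ratio of 4.43-fold (4.10 to 4.77). Junb stood at 408 and 1458 CPM (3.57-fold (3.35 to 3.81)), Gadd45b, a growth arrest and stress sensor gene, at 414 and 1358 CPM (3.28-fold (3.07 to 3.50)), and Jund at 181 and 518 CPM (2.87-fold (2.58 to 3.19)). Fos itself differed little, with 1198 and 1353 CPM, and Nr4a2, Hspe1 and Zfp36 were also within 1.5-fold. By role, 6 of 7 AP-1 and ATF factors, 8 of 11 feedback genes and 5 of 5 inducible heat shock genes were higher, against 0 of 4 constitutive or mitochondrial chaperones.

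Plasma-like cells had 17 of 29 members higher and 1 lower, against 9.84% and 24.7% of all genes. Ier5 stood at 20.7 and 83.8 CPM (4.05-fold (2.86 to 5.77)), Fosb at 109 and 426 CPM (3.90-fold (3.36 to 4.54)), Hspa1a at 153 and 593 CPM (3.88-fold (3.42 to 4.40)) and Junb at 59.8 and 205 CPM (3.43-fold (2.78 to 4.23)). All 6 AP-1 and ATF factors compared were higher. The lower member was Btg1, at 159 and 78.4 CPM, 2.03-fold (1.61 to 2.59) lower after NPs.

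Macrophage or monocyte-like cells were mixed, with 12 of 34 members higher and 4 lower, against 17.7% and 23.6% of all genes. Junb stood at 393 and 1638 CPM (4.16-fold (3.63 to 4.79)), Ier2 at 121 and 356 CPM (2.95-fold (2.30 to 3.84)), Atf3 at 572 and 1359.9 CPM (2.38-fold (2.12 to 2.68)) and Dusp1 at 551 and 1259.7 CPM (2.29-fold (2.03 to 2.58)). Nr4a2, at 101 and 37.6 CPM, was 2.70-fold (1.86 to 3.92) lower, and Hspe1, at 762 and 349 CPM, 2.19-fold (1.93 to 2.48) lower. The class was made of different cells in the libraries: cluster 16, led by Il1b and Lyz2, held 77.6% of the untreated cells, and cluster 21, led by Lyz2, Apoe and C1q genes, held 71.0% of the NPs cells. Within cluster 16 the immediate early sum went from 95.8 to 119.2 per 10000, a ratio of 1.24 (1.19 to 1.30), and in the class value cluster and treatment cannot be told apart.

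In goblet-like cells, makers of mucus, 14 of 31 members were higher and 0 lower, against 15.9% and 9.75% of all genes. Hspa1a stood at 109.5 and 334 CPM (3.05-fold (2.88 to 3.24)) and Ier2 at 218 and 583 CPM (2.68-fold (2.57 to 2.80)). The constitutive group had 0 of 4 higher and a median log2 ratio of -0.33. The goblet-like cells lay in cluster 15 (1375 untreated and 0 NPs cells), cluster 25 (16 and 2188) and cluster 27 (0 and 476). Cluster and treatment therefore cannot be told apart in this class. Cycling cells of the intestine had 12 of 32 higher and 3 lower, against 16% and 8.17%, with Hspa1a at 118 and 493 CPM (4.17-fold (3.89 to 4.47)). Zfp36 and Dusp1 were 1.63-fold and 1.58-fold lower there, but the Zfp36 call was kept in 4 and the Dusp1 call in 5 of 8 other settings, and the log2 ratio of Zfp36 was -0.036 after thinning. The cycling cells lay in cluster 5 (365 untreated and 2 NPs cells) and cluster 20 (19 and 725), so the same limit holds for them. Enteroendocrine-like cells had 11 of 33 higher and 2 lower, against 27.8% and 8.64%, a share of higher members near the background. Hspa1a was nevertheless 3.19-fold and Ier2 3.01-fold higher. Fibroblast-like cells had 10 of 29 higher and 1 lower, against 16.6% and 12.5%, with Hspa1a at 93.5 and 332 CPM (3.55-fold (2.50 to 5.22)) and Ier2 at 87.8 and 299 CPM (3.41-fold (2.37 to 5.07)).

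In the brain the libraries differed less, and the immediate early sum passed 1.5-fold only in ependymal-like cells. Ratios of the sum were 1.28 in endothelial-like, 1.14 in astrocyte-like and 1.12 in T cell-like cells, and 0.921 in microglia-like, 0.881 in vascular smooth muscle-like, 0.837 in cycling and 0.749 in neutrophil-like cells. No brain class had a heat shock sum that differed by 1.5-fold, and the lowest ratio, in microglia-like cells, was 0.721.

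Microglia-like cells had 0 of 31 members higher and 5 lower after NPs, against 1.1% and 1.19% of all genes, so lower members stood well above the background share. Hspa1a was 343 and 134 CPM in the untreated and NPs libraries, 2.56-fold (2.47 to 2.66) lower. Hspa1b was 113 and 49.7 CPM (2.28-fold (2.14 to 2.42) lower), Hsp90aa1 589 and 343 CPM (1.72-fold (1.68 to 1.76) lower) and Egr3 33.4 and 17.5 CPM (1.91-fold (1.72 to 2.12) lower). The AP-1 and ATF factors had 0 of 6 called in either direction, with Fos at 1279 and 1336 CPM. The constitutive chaperones Hspa8 (599.7 and 502 CPM) and Hsp90ab1 (1131 and 907 CPM) were within 1.5-fold, as was the heat shock sum. The lower Hspa1a level was also seen inside the high clusters, with 790 CPM in cluster 5 untreated against 333 CPM in cluster 10 after NPs. Within cluster 5, which both libraries share, the heat shock sum went from 53.6 to 40.5 per 10000, with 1246 and 60 cells.

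Neutrophil-like cells, 74 untreated and 118 after NPs, had 1 of 23 members higher and 8 lower, against 7.12% and 16.5% of all genes. Nr4a1 was 337 and 133 CPM (2.54-fold (1.79 to 3.61) lower), Atf3 449 and 241 CPM (1.86-fold (1.41 to 2.46) lower) and Zfp36 1614 and 894 CPM (1.80-fold (1.56 to 2.08) lower). Vascular smooth muscle-like cells, 184 and 54, had 1 of 29 higher and 5 lower, against 9.88% and 6.56%. Hspa1a was 689.8 and 266 CPM (2.59-fold (1.98 to 3.45) lower), Klf4 219.9 and 99.2 CPM (2.22-fold (1.42 to 3.62) lower) and Dusp1 817 and 383 CPM (2.13-fold (1.70 to 2.70) lower), while Btg2 was 672 and 1141 CPM (1.70-fold (1.46 to 1.97) higher). This cluster also raised all 7 pericyte markers, so it is not smooth muscle alone by its genes.

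Cycling cells of the brain had 0 of 23 members higher and 4 lower, against 1.68% and 3.14% of all genes. The lower ones were Zfp36 (85.4 and 32.9 CPM), Atf3 (58.0 and 25 CPM), Junb (230.4 and 138 CPM) and Ier2 (547 and 341 CPM), each at least 1.5-fold. Endothelial-like cells had 2 of 32 higher and 2 lower, against 3.42% and 3.69%: Btg2 (101 and 169 CPM) and Klf4 (534 and 812 CPM) were higher, and Egr1 (57.3 and 30.0 CPM) was among the lower. Both shares were near the background, and they changed with the processing. T cell-like cells had 7 of 33 higher and 2 lower, against 8.68% and 4.17%. Among the AP-1 genes called higher were Fosb (80.5 and 240.0 CPM) and Fos (335 and 648 CPM). Klf4, at 8 and 139 UMIs or 10.2 and 69.2 CPM, had a larger ratio (6.77-fold (3.34 to 16)). It was under the level limit untreated and passed only through the NPs library, so its ratio is not read as a result. Astrocyte-like cells had 2 of 18 higher and 0 lower, against 1.51% and 0.695%, namely Fos (27.4 and 43.4 CPM, 1.58-fold (1.43 to 1.76)) and Btg2 (45.1 and 71.0 CPM, 1.57-fold (1.45 to 1.71)), both at levels near the free RNA floor. The call of Fos was kept in 5 and that of Btg2 in 7 of 10 other settings, and the log2 ratio of Fos was 0.04 with doublets kept. The class lay partly in different clusters, with 1326 untreated and 49 NPs cells in cluster 0 and 57 and 1471 in cluster 2.

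Ependymal-like cells, the ciliated lining of the ventricles, had 17 of 26 members higher and 0 lower, against 6.24% and 4.97% of all genes. Btg2 was 58.2 and 284 CPM (4.89-fold (3.88 to 6.16)), Atf3 48.2 and 228 CPM (4.72-fold (3.65 to 6.11)), Ier2 40.5 and 187 CPM (4.60-fold (3.47 to 6.11)) and Fos 169 and 745 CPM (4.42-fold (3.85 to 5.07)). Hsp90aa1, the chaperone with the highest level there, was 6638 and 5814 CPM. The immediate early sum went from 24.0 to 55.0 per 10000 UMIs (2.29 (2.19 to 2.39)), but it rested on 51 NPs cells against 277 untreated ones. The 5 NPs cells with the highest immediate early share held 39.6% of these UMIs and 53.1% of the UMIs of genes linked to immune cell activation. Without the 5 such cells of each library the sums were 22.5 and 36.8 per 10000, a ratio of 1.63. Microglia marker genes stood at 42.8 per 10000 in those 5 NPs cells and 13.9 in the rest, and at 141 and 11.5 in the untreated library. Ccl4, a chemokine of microglia, was 17.3 and 277 CPM in the whole class, and the part of microglial RNA in the ependymal-like values was not tested.

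Cluster and mitochondrial share were then held fixed. In all 7 intestinal clusters with at least 50 cells in both libraries the immediate early ratio was above 1, from 1.24 to 1.92, and in 3 it was at least 1.5. T cell-like cluster 12 went from 88.6 to 170.3 per 10000 (1.92) and T cell-like cluster 10 from 75.6 to 119.0 (1.57). The heat shock ratio was above 1 in 6 of the 7, from 0.93 to 1.61. No absorptive epithelium-like, goblet-like or cycling cluster of the intestine held 50 cells of both libraries, so these classes have no such value. Within mitochondrial ranges of 0 to 5%, 5 to 10% and 10 to 20%, the immediate early ratio was 1.71, 2.07 and 1.97 in absorptive epithelium-like and 1.31, 1.65 and 1.81 in goblet-like cells. Over all intestinal classes and ranges it was above 1 in 12 of 12, from 1.05 to 2.07. In the brain it was above 1 in 11 and below 1 in 5 of 16 clusters, from 0.62 in microglia-like cluster 18, led by interferon genes, to 1.55 in astrocyte-like cluster 11.

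**Figure D5:**
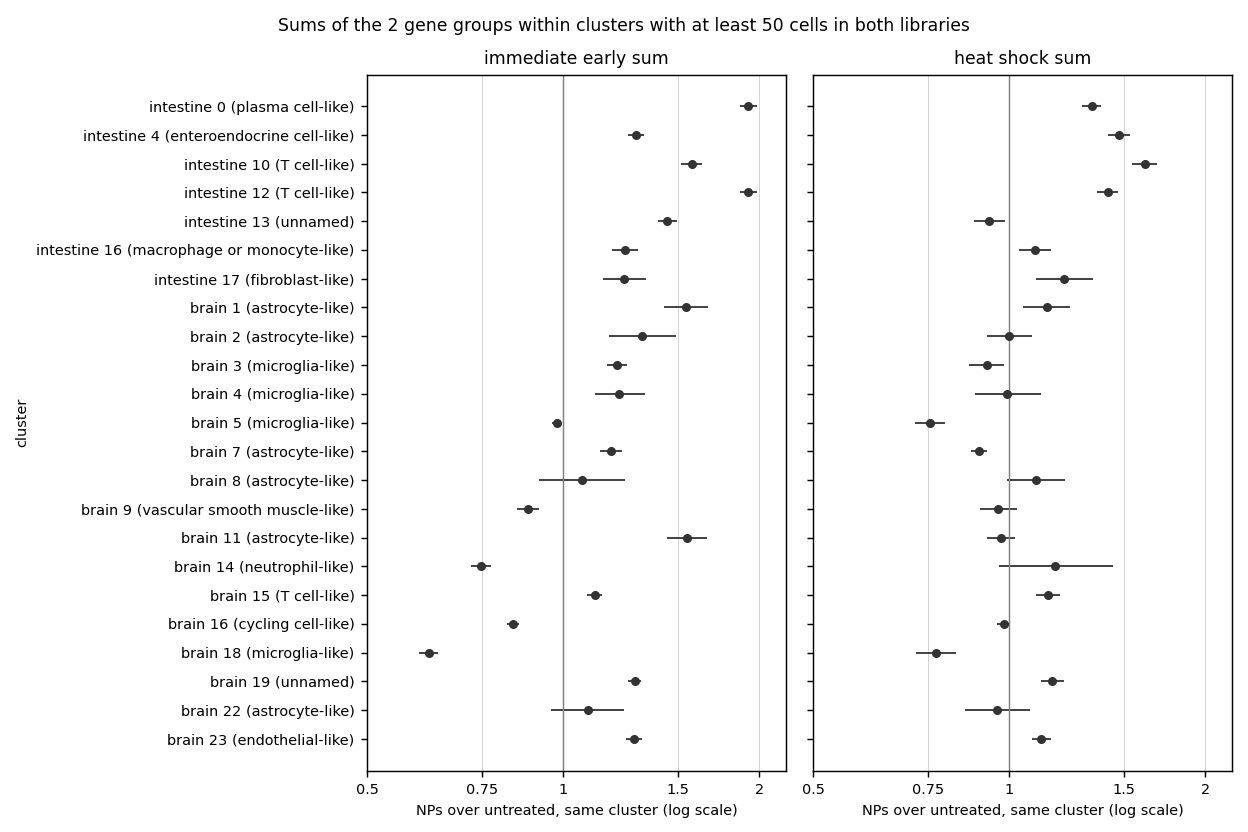
Ratio of the immediate early and of the heat shock sum in the NPs over the untreated library within each cluster that held at least 50 cells of both, on a log axis, with 95% counting intervals. All 7 intestinal clusters lie above 1 for the immediate early sum (1.24 to 1.92), while the 16 brain clusters lie on both sides.

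Related genes outside the 36 were read in the same way. Of 28 further immediate early genes, 11 of 19 compared were higher and 0 lower in intestinal T cell-like cells (17.8% and 5.88% of all genes), 13 of 21 higher and 2 lower in macrophage or monocyte-like cells (17.7% and 23.6%), and 8 of 16 higher and 3 lower in absorptive epithelium-like cells (25.6% and 12.3%). In microglia-like cells 0 of 16 were called, against 1.1% of all genes higher and 1.19% lower, a count near the background. Of 27 further chaperones and heat shock factor targets, 6 of 20 compared were higher in absorptive epithelium-like cells, with Dnajb4 at 12.9 and 49.4 CPM and Fkbp4 at 48.3 and 105 CPM. This share was near the 25.6% of all genes, and Dnajb4 passed the level limit only through the NPs library. In macrophage or monocyte-like cells 8 of 17 were lower, against 23.6% of all genes.

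A list of 9 genes linked to activation of immune cells during handling (Ccl3, Ccl4, Rgs1, Nfkbid, Tnf, Il1a, Il1b, Cd83, Ccrl2) was summed in the same way. The genes were listed for immune cells, so higher sums in immune-like than in astrocyte-like cells follow from the list. The summed level of the list per 10000 UMIs was 124 and 60.3 in brain neutrophil-like, 22.5 and 22.1 in microglia-like, and 0.577 and 0.812 in astrocyte-like cells (untreated and NPs). In the intestine it was 65.8 and 99.7 in macrophage or monocyte-like and 27.9 and 44.6 in T cell-like cells. In microglia-like cells 0 of 9 were called in either direction, against 1.1% of all genes higher and 1.19% lower, so this count is near the background. In ependymal-like cells 4 of 4 compared were higher, against 6.24% of all genes, with a median log2 ratio of 4.16. These are the genes already given above for the 5 cells, which held 53.1% of the UMIs of the list in the NPs class. Ccl4 was under the level limit untreated and passed only through the NPs library. A gene that low untreated can be compared only if it is higher after NPs, so this count is not read as a result. In intestinal macrophage or monocyte-like cells 5 of 9 were higher and 1 lower, against 17.7% and 23.6% of all genes. Cd83 stood at 139.9 and 768 CPM, Ccl3 at 376 and 1178 CPM and Il1a at 135 and 23.3 CPM. How much of these levels came from dissociation was not tested.

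By the likeness of log2(CPM + 10) over the 47 pairs of class and library, the non-member most like the immediate early sum was Nfkbiz (r = 0.84), followed by Ccnl1, Ptbp3, Cited2, Vasp, Arpc1b, H3f3b, Cyba, Lrrfip1 and Txnip (0.74). The one most like the heat shock sum was Cct7, a subunit of the cytosolic chaperonin (0.85), followed by Park7, Snrpd2, Serbp1, Ptma, Pdcd5, Nol7, Ncl, Mrpl13 and Cfdp1 (0.80). Genes were compared at a mean of at least 50 CPM.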

How the data were processed

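Single-cell RNA counts of 4 libraries, 2 of the intestine and 2 of the brain, were used as deposited. The deposited values are raw UMI counts for each of 55450 genes, made by the authors with Cell Ranger 5.0.1 and the build GRCm38 per the file headers and the submitters' processing notes. The chemistry is 10x 3' v3 per the labels' protocols. Barcodes below about 500 UMIs had already been left out (lowest 500 to 505). The 36 genes and all lists were chosen with earlier results of these data known.

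A barcode was kept if it had 500 UMIs or more, 200 genes or more and no more than 20% of its UMIs from mitochondrial genes. Doublets were called with Scrublet per library. Its own threshold marked 0.0354% and 0% of the intestinal barcodes and so did not work there, and a fixed score of 0.25 was used, which removed 0.66% and 0.855%. In the brain 2.87% and 2.03% were removed. Both libraries of each tissue entered 1 clustering, with no batch correction (2000 variable genes, 30 principal components, 15 neighbours, Leiden resolution 1). The 36 genes and the further listed genes, except the common control genes, were left out. The alternative with members kept among the clustering genes put all of these back. Clustering gave 32 clusters for the intestine and 26 for the brain. Names were given from fixed marker lists where at least 3 markers were 2-fold raised and found in 20% of its cells. After the data were seen a rule was added that left intestinal cluster 22 unnamed, since it had no marker of its own class among its 10 leading genes and another class with as many raised markers.

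Counts of the cells of a class were summed per library and divided by the total UMIs of the class, giving CPM or sums per 10000 UMIs. Genes with a mean of at least 20 CPM and at least 20 UMIs expected in the smaller total were compared, at 1.5-fold. With 1 library per group there is no test, no paired analysis and no p-value. In each class the 4 largest and 4 smallest member ratios and up to 3 genes of each further list are named, by a rule set with the lists, and other members are named for their role. The count script was tested on simulated data with known changes. Alternatives were 9 planned ones (mitochondrial limit of 10%, no such limit, doublets kept, resolution 2, members kept among the clustering genes, mean over cells, thinning to 1000 UMIs, the median of all genes set to 0, no filter on low values) and 4 chosen after the data were seen (scaling to non-mitochondrial UMIs, values within the same cluster, values within the same mitochondrial range, ependymal-like cells without the 5 highest of each library). The tools were scanpy 1.11.5, igraph 0.11.9, scikit-learn 1.9.0, scipy 1.17.1, matplotlib 3.10.9, pandas 2.3.3, anndata 0.12.19 and numpy 2.4.6 under Python 3.11.15. One result among the further lists is not reported here.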

Additional observations from a re-analysis of the deposited data

Results flagged for a closer look

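For some genes of like-named classes the NPs library stood above the untreated one in the intestine and below it in the brain. In T cell-like cells the log2 ratio of Atf3, a stress-induced repressor, was 0.85 in the intestine and -0.62 in the brain, and that of Klf2, a factor of resting lymphocytes, was 1.39 and -0.67. In cycling cells Ier2 stood at 0.91 and -0.68, and Junb at 0.87 and -0.74, but the brain cluster also raised all 7 neuroblast markers, so these classes differ in more than tissue. Each difference between the tissues rests on 1 library per group and was not tested. The brain value of Atf3 turned to 0.27 with doublets kept and to 0.80 after thinning, and the lower call of Klf2 in the brain was kept in 7 of 10 other settings (-0.32 after thinning). The tissues also differ in the time of treatment and, by the labels, possibly in strain and age.

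The barcodes over the mitochondrial limit, which were used only in the alternative without that limit, also held the 36 genes. In the intestine 3399 untreated and 9271 NPs barcodes had an immediate early sum of 27.6 and 69.5 per 10000 UMIs and a heat shock sum of 13.8 and 28.9. In the 80 and 34 such barcodes of the brain the immediate early sum was 9.27 and 10.2, and the heat shock sum 16 and 16.5. The kept cells stood at 60.3 and 92.8 (intestine) and 82.3 and 95 (brain) for the immediate early sum. Per 10000 non-mitochondrial UMIs the intestinal barcodes over the limit had 60.5 and 117.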

How the results depend on the processing

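With 1 library per group no value has a replicate check, and no paired analysis was possible because each group holds 1 library. The log2 ratios of the immediate early sum kept their side of 1.5-fold in T cell-like (0.77 to 0.95), absorptive epithelium-like (0.63 to 0.94) and plasma-like cells (0.92 to 1.14) under 10 alternatives each, while macrophage or monocyte-like cells did not pass without a mitochondrial limit (0.50), with doublets kept (0.56) or with members kept among the clustering genes (0.56). The heat shock sum of T cell-like cells did not pass with the all-gene median at 0 (0.54). In microglia-like cells the lower calls of Hspa1a, Hspa1b, Hsp90aa1 and Egr3 were kept in all 10. The heat shock sum of absorptive epithelium-like cells ranged from 0.35 (mean over cells) to 1.53 (doublets kept). Intestinal classes with an immediate early sum 1.5-fold higher numbered 7 instead of 4 after thinning. Brain classes numbered 0 instead of 1 with a 10% mitochondrial limit, doublets kept, members kept among the clustering genes or thinning, where the ependymal-like class was not compared. Members lower in absorptive epithelium-like cells numbered 1 with the mean over cells and 2 without the filter instead of 0. In goblet-like cells 1 was lower instead of 0 with a 10% limit, no limit, the mean over cells, thinning or no filter. In macrophage or monocyte-like cells 2 were lower instead of 4 after thinning. In endothelial-like cells 2 higher became 1 (10% limit, doublets kept), 0 (no limit) or 4 (thinning), and 2 lower became 4 (no limit), 1 (doublets kept, mean over cells) or 0 (thinning). The cause was not tested. Directions turned for Hspb1 in intestinal cycling cells (1.03 thinned), Nr4a2 (0.082, mean over cells) and Gadd45b (0.49, mean over cells, and 1.68 thinned) in enteroendocrine-like, Ier3 in fibroblast-like (0.022 thinned), Dusp5 in macrophage or monocyte-like (0.22, mean over cells), Atf3 in brain T cell-like (0.27, doublets kept, and 0.80 thinned) and Egr1 in brain endothelial-like cells (0.052, mean over cells). Within 1.5-fold, Nr4a1 in absorptive epithelium-like cells also changed sign (-0.77, mean over cells, -0.40 thinned, and -0.10, all-gene median at 0). Calls of all named genes and sums together were kept in 116 to 158 cases per alternative and changed in up to 24. This leaves out the alternative without the filter on low values, in which ratios of named genes and sums cannot change. It is still counted among the other settings in which single calls were kept. Depth limits the small classes most: 51 ependymal-like, 54 vascular smooth muscle-like and 74 neutrophil-like cells stood on the smaller side, and thinned levels near 1 UMI carry no order.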
